A study of Drosophila melanogaster with 2 samples.

Results

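MicroRNA genes were examined in a chromatin immunoprecipitation sequencing (ChIP-seq) profile of CG10631 in Drosophila melanogaster. They were chosen as the genes of the BDGP6.54 annotation whose name starts with mir-, because that annotation has no biotype of its own for microRNA precursors. The rule found 262 microRNA genes among the 18358 annotated genes that are not transposable elements. Of these, 260 lie on the 6 chromosome arms that the region lists cover, and 2 copies of mir-10404 lie on an rDNA scaffold and were not placed in any comparison. The profile has a single group: whole animals of a transgenic line that stably expresses CG10631 with eGFP fused to its C terminus, collected as white prepupae, the stage that opens metamorphosis, and precipitated with an antibody against GFP. Its 2 biological replicates are numbered 2 and 3. Both replicates come from 1 line and all tissues are mixed, so fewer cells of a type and less binding per cell cannot be told apart. Sex and exact age are not given. Controls were not analysed here, so no contrast between conditions was tested.

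A microRNA is cut from a hairpin in a longer primary transcript, first in the nucleus by the Microprocessor (Drosha and Pasha) and then in the cytoplasm by Dicer-1, and is loaded into AGO1, where its seed pairs with target mRNAs. Some hairpins have transcripts of their own, often named as long noncoding RNAs (lncRNAs), and others sit in introns of protein-coding genes and are released from the host transcript. The start site of the transcript can therefore lie far from the hairpin. In the metamorphosing fly, the let-7 locus is known for its rise after the ecdysone pulse, bantam (mir-ban) for promoting growth and blocking cell death, and mir-8 for its role in growth control.

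The hairpins below are those near the peaks that the results turn on, and the mature arms are printed so that genes sharing a target-recognition seed can be seen. Sequences were read from the RefSeq Release 6 (dm6) genome at the annotated mature positions, 5′ to 3′, with U for T and with bases 2 to 8, the seed, in capitals. mir-92a and mir-92b share their seed, as do mir-279 and mir-996, and mir-2b-2 and mir-2a-1.
mir-ban, 3p arm: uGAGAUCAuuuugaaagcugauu
mir-282, 5p arm: uAGCCUCUacuaggcuuugucugu
mir-92a, 3p arm: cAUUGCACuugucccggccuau
mir-92b, 3p arm: aAUUGCACuagucccggccugc
mir-279, 3p arm: uGACUAGAuccacacucauuaa
mir-996, 3p arm: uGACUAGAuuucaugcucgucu
mir-275, 3p arm: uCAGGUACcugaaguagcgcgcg
mir-305, 5p arm: aUUGUACUucaucaggugcucug
mir-276a, 3p arm: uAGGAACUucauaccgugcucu
mir-2b-2, 3p arm: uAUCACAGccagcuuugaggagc
mir-2a-1, 3p arm: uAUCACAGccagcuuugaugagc

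Across the genome, 33 seeds were shared by 2 or more microRNA genes, and 10 of these 33 had a member near a peak, as defined below. The largest family, with the seed AUCACAG, holds 14 genes of the mir-2, mir-13, mir-6, mir-11, mir-5 and mir-308 names. Near a peak were 2 of the 14, mir-2b-2 and mir-308. The seed AUUGCAC is shared by 6 genes, of which mir-92a and mir-92b lay near a peak and mir-310, mir-311, mir-312 and mir-313 did not. The seed GACUAGA is shared by mir-279, mir-286 and mir-996, of which mir-279 lay near a peak. Over all microRNA genes on the arms 25 of 260 lay near a peak (9.62%), and the families were not tested against that share. A family counted when any of its members lay near a peak, so 10 of 33 cannot be compared with a share per gene. The seeds of both arms were counted, so the same genes can enter more than once, as mir-276a and mir-276b do.

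Peaks near microRNA genes were about as frequent as the share of the genome near a peak. A peak here is an entry of the authors' list of 8399 regions thresholded by the irreproducible discovery rate (IDR). Signals from both replicate lists were found for 8319 of these regions. A gene was counted when a summit lay within 1 kb of it. This held for 25 of 260 genes (9.62%, Wilson 95% interval 6.60 to 13.8%), against 10.5% of the bases of the 6 arms. Other short RNA genes stood at 14.1% (snoRNA), 14.8% (tRNA) and 12.5% (snRNA), and the 5′ ends of protein-coding genes at 21.0%. Within the merged list of 30000 regions, which includes weak regions below the IDR list, 83 of 260 microRNA genes (31.9%, 26.6 to 37.8%) had a summit within 1 kb, against 31.2% of bases and 39.6% of protein-coding 5′ ends. The share of microRNA genes near a peak was therefore close to the share of all bases in both lists. The remaining 177 genes had no region of any list strength within 1 kb in the merged list. Intervals cover counting error only, and neighbouring genes share peaks.

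**Figure D1:**
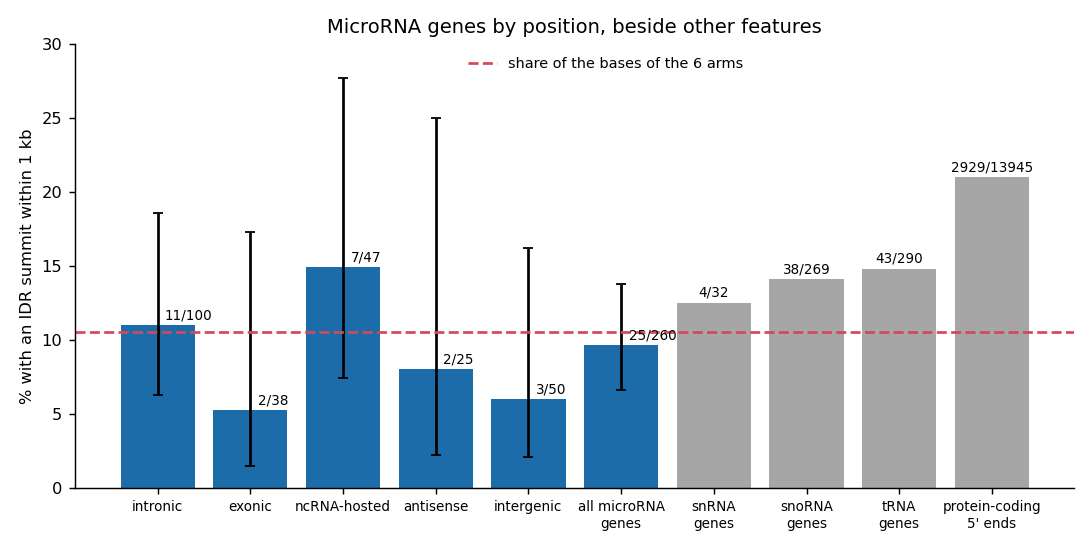
Percentage of features with an IDR summit within 1 kb, for microRNA genes by position (blue, with Wilson 95% intervals) and for other features (grey), with the count above each bar; the dashed line is the share of bases of the 6 arms. The bar of all microRNA genes (9.62%) lies just under the line at 10.5% and the ncRNA-hosted class (14.9%) above it, with intervals that overlap between classes.

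By position, 100 hairpins lay in an intron of a protein-coding gene on the same strand and 122 were independent of such a gene. Of the intronic hairpins 11 had an IDR summit within 1 kb (11%, 6.25 to 18.6%), against 12.8% of intronic bases. Of the independent hairpins 12 had one (9.84%, 5.72 to 16.4%), against 9.50% of bases outside protein-coding genes. Among the independent hairpins, those inside an annotated ncRNA gene of the same strand stood highest with 7 of 47 (14.9%, 7.41 to 27.7%), followed by 2 of 25 antisense to a protein-coding gene (8%, 2.22 to 25%) and 3 of 50 intergenic ones (6%, 2.06 to 16.2%). A further 38 hairpins overlapped an exon of a protein-coding gene and 2 of them had a summit (5.26%, 1.46 to 17.3%). The intervals of all these classes overlapped.

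Mirtrons, hairpins whose ends are the ends of a short intron and which splicing rather than Drosha releases, had 1 gene near a peak. By the rule that both hairpin ends lie within 15 bases of the ends of an intron there were 34, and 1 of them, mir-4911 in ND-23, had an IDR summit within 1 kb (2.94%, 0.521 to 14.9%). In the merged list this was 2 of 34 (5.88%, 1.63 to 19.1%), against 31.9% of all microRNA genes and 31.2% of bases. For IDR summits, intronic hairpins that were not mirtrons had 10 of 69 (14.5%, 8.07 to 24.7%), an interval that overlaps that of the mirtrons. Mirtrons such as mir-2500, mir-1009 and mir-4917 overlap an exon and are not among the intronic hairpins. In the merged list the interval of the mirtrons lay below that of all microRNA genes (26.6 to 37.8%), which include them. No difference was tested.

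At 5000 and 10000 bp the share of all microRNA genes with a summit stood above that of bases, with intronic hairpins above and independent ones below. Within 10000 bp it was 149 of 260 genes (57.3%, 51.2 to 63.2%), against 49.5% of bases, with 66% of intronic and 48.4% of independent hairpins. The nearest IDR summit lay a median of 8266 bp from the hairpin (quartiles 3094 and 17714 bp), with 5587 bp for intronic and 20868 bp for intergenic hairpins. Within 5000 bp, 44 of 100 intronic and 39 of 122 independent hairpins had a summit (44.0% and 32.0%), against 33.6% of bases. At that distance snoRNA genes stood at 60.6%, tRNA genes at 52.8% and protein-coding 5′ ends at 43.8%. All microRNA genes there stood at 36.9% (31.3 to 42.9%), an interval that holds the 33.6% of bases. The share of intronic bases was not counted at these wider distances. Just inside the 1 kb limit were mir-8 (906 bp), mir-4911 (920 bp) and mir-4956 (921 bp). Just outside were mir-2a-1 (1004 bp), mir-9384 (1142 bp) and mir-2c (1170 bp).

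**Figure D2:**
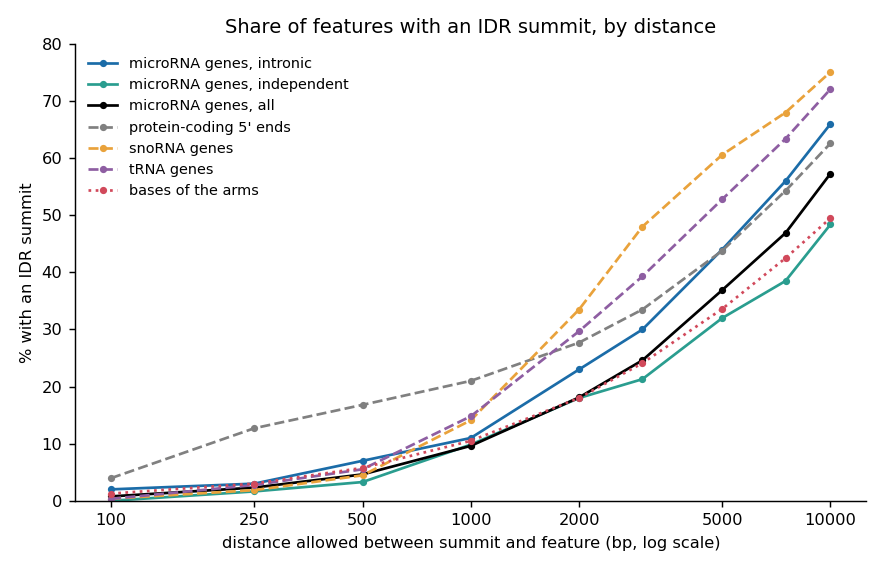
Percentage of features with an IDR summit within the distance on the x axis (bp, log scale), for microRNA genes (solid lines), other features (dashed) and all bases of the arms (dotted). The line of all microRNA genes follows the line of bases up to 2000 bp, and stands above it at 10000 bp (57.3% against 49.5%); the intronic genes (44.0% at 5000 bp) stand above the independent ones (32.0%).

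The peaks near microRNA genes were of ordinary strength for the list. The 25 genes had 29 different IDR peaks within 1 kb, some of which overlap each other, and 6 genes had 2 such peaks. Their median signal, the authors' value per region in the merged list, was 191 (quartiles 129 and 261), against 190 (133 and 324) over all 8399 peaks. The highest was 639, at rank 627 of the list. In the replicate lists 27 of the 29 peaks overlapped one of the 8399 strongest regions of each replicate (93.1%, 78 to 98.1%). These lists are input for the IDR comparison, so such overlap was favoured in advance. The same share over all IDR peaks was not counted. At the peaks near microRNA genes the ratio of replicate 3 to replicate 2 had a median of 1.03, against 1.05 over all peaks. Of the 29 summits 7 lay within 500 bp of a protein-coding start site (24.1%, against 28.2% of all peaks). A further 11 lay in introns (37.9%, 22.7 to 56%, against 46% of all peaks). Intergenic sequence held 10 (34.5%, 19.9 to 52.7%, against 24.5% of all peaks). Relative to the hairpin, 21 of 31 pairs of gene and peak had the summit upstream (67.7%, 50.1 to 81.4%), 2 had it inside the hairpin and 8 downstream. The pairs are not independent, because mir-275 and mir-305 share peaks and some entries overlap. The same count over other features was not made, so no preference for a side can be read from it.

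The strongest peak within 1 kb belonged to mir-9377, an intronic hairpin of Tis11, a gene for a protein that binds AU-rich mRNA elements. That peak (X, 12665493 to 12665751) lay 353 bp downstream of the hairpin within the intron, 5087 bp from the nearest protein-coding start. It had a signal of 326 in replicate 2 and 311 in replicate 3 (mean 319 ± 10.9, SD, n = 2). These are the authors' values per region, from lists made separately for each replicate, and they are used only to describe and rank. The next, 448 bp downstream of mir-92a (3R, 25646828 to 25647267), had 332 and 284 in the replicates (308 ± 33.9) and lay 198 bp from a start site of the host jigr1, a gene of the MADF-domain family.

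mir-92b, the clustered partner of mir-92a in a locus spanning 4992 bp, overlaps a jigr1 exon. Its own peak, 110 bp downstream of the hairpin (3R, 25651387 to 25651826), had a signal of 81.1 in replicate 2 and 81.3 in replicate 3 (81.2 ± 0.135). Both members of this cluster thus had a peak. The stronger lay at a jigr1 start site downstream of the mir-92a hairpin, and the weaker further inside the gene. Upstream of mir-92a, another jigr1 start had an IDR summit 180 bp away (3R, 25637443 to 25637882), with 96.3 in replicate 2 and 120 in replicate 3.

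**Figure D3:**
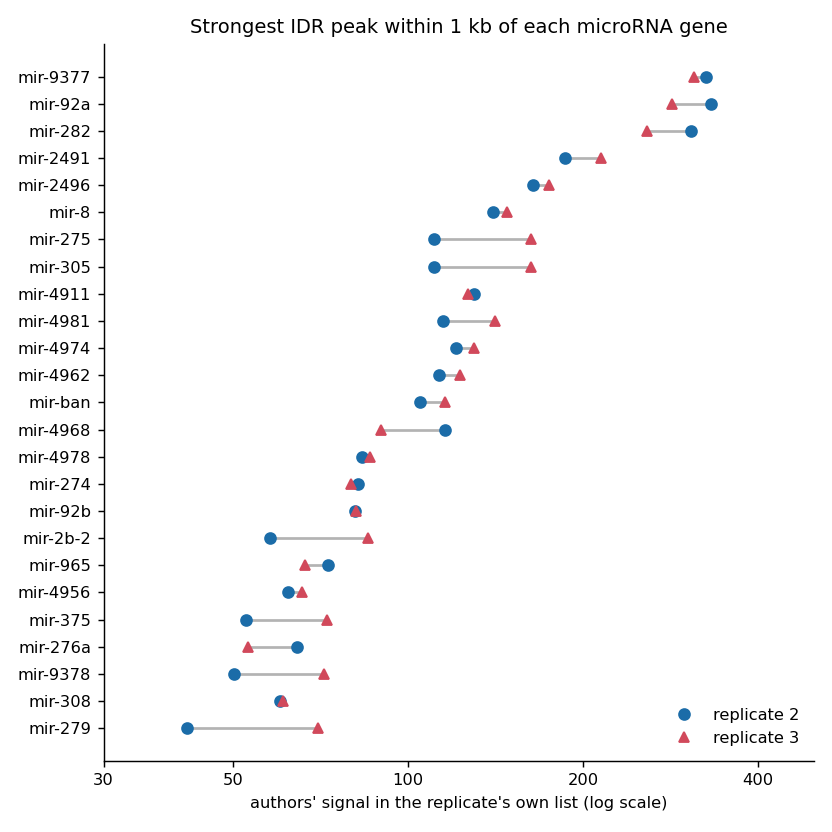
Authors' signal (log scale) of the strongest IDR peak within 1 kb of each of the 25 microRNA genes in the lists of replicate 2 (circles) and replicate 3 (triangles), ordered by signal in the merged list. mir-9377 stands at 326 and 311 and mir-279, last in that order, at 41.7 and 70.0; mir-275 and mir-305 share a peak.

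mir-282 is known as a regulator of the adenylate cyclase rutabaga, and is grouped here with the microRNAs of metamorphosis. It had a peak 828 bp upstream (3L, 3249974 to 3250413) with 307 in replicate 2 and 258 in replicate 3 (282 ± 34.4). An overlapping entry 624 bp upstream had 94.7 and 28.8, and there the replicates differed more than at any other peak near a microRNA gene. Within 6 kb the locus held 7 entries of the IDR list, some overlapping and all upstream of the hairpin, as many as at mir-275 and more than at the other 16 hairpins examined in this way. The strongest of the 7, at a start site of the host transcript lncRNA:CR43626 (3L, 3248906 to 3249103), had 423 and 325 in the replicates (374 ± 69.6) and ranked 292 in the merged list.

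bantam, which represses the cell death gene hid, had an IDR peak 402 bp downstream of its hairpin (3L, 642470 to 642909) with 105 in replicate 2 and 116 in replicate 3 (111 ± 8.02). Stronger peaks flanked it outside 1 kb. The peak 1466 bp upstream of the 5′ end of the hairpin (3L, 640644 to 640845) had 279 and 245, that 2110 bp downstream (3L, 644199 to 644440) 307 and 293, and that 5555 bp upstream 289 and 289. None of the IDR summits lay within 500 bp of a start site of its annotated host, lncRNA:CR43334, the nearest being 1028 bp away.

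mir-8, a member of the conserved miR-200 family known to promote body growth through the fat body, had a peak 906 bp upstream (2R, 16830306 to 16830745) with 140 in replicate 2 and 148 in replicate 3 (144 ± 5.37). Its summit was 163 bp from a start site of the host lncRNA:CR43650. A second upstream peak at 2980 bp (2R, 16828232 to 16828671) had 137 and 245, a wider spread between replicates.

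The other microRNAs of the ecdysone and metamorphosis group had no IDR summit within 1 kb. The group held 9 genes, of which mir-282, mir-ban and mir-8 counted as near a peak (33.3%, 12.1 to 64.6%), against 9.62% of all microRNA genes and 10.5% of bases. The members were listed with earlier results of these data known and were not tested as a set. The let-7 locus carries mir-100, mir-let7 and mir-125 on the transcript lncRNA:let7C. Its hairpins were 3203, 3803 and 4084 bp from the nearest IDR summit, an upstream peak (2L, 18468011 to 18468450) with 135 in replicate 2 and 162 in replicate 3. At the start of lncRNA:let7C, 15717 bp from the nearest hairpin, an IDR peak (2L, 18456220 to 18456367) lay with its summit 577 bp from the start site, just past the 500 bp promoter limit. Its signal was 160 and 202 in the replicates and 369 in the merged list, at rank 1724. The let-7 hairpins themselves therefore had no peak beside them, while the locus had IDR peaks near its start and between start and hairpins.

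mir-34, known for its role in the ageing brain, had no IDR summit within 6 kb of its 5′ end, and its nearest was 10999 bp away. It shares a cluster with mir-277 and mir-317, whose nearest IDR summits were 11912 and 3356 bp away. mir-14, which acts on the ecdysone receptor, had a weak region 46 bp from the hairpin in the merged list and its nearest IDR summit at 3823 bp. mir-252 had a merged-list region at 441 bp and an IDR summit at 5157 bp.

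**Figure D4:**
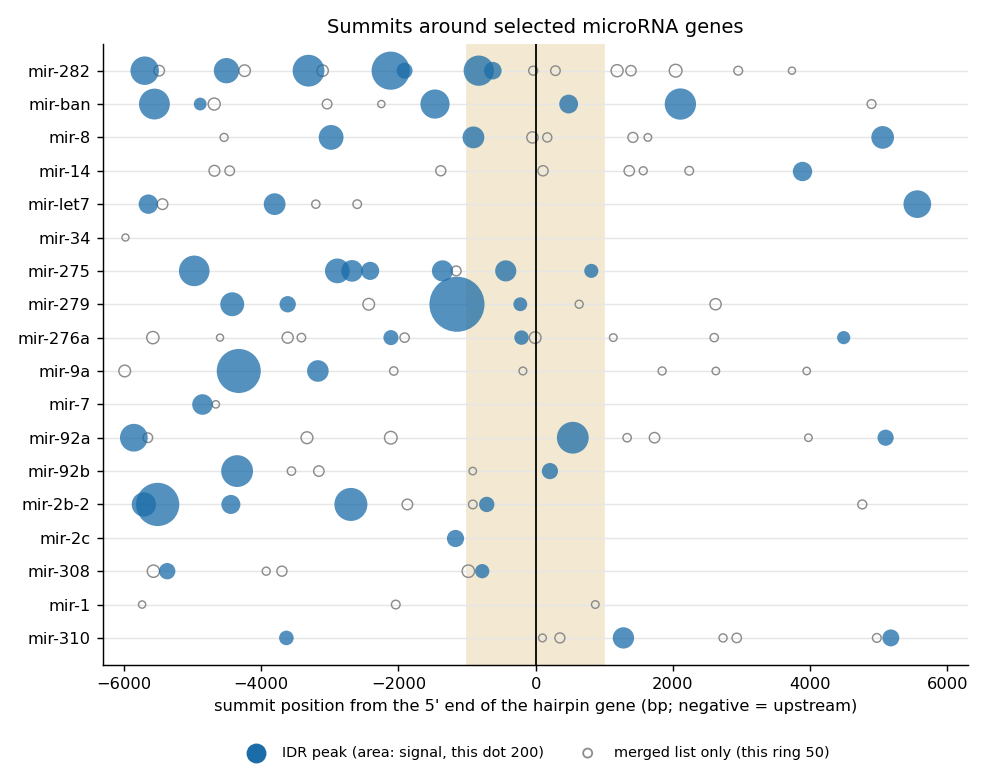
Summits within 6 kb of the 5′ end of 18 selected microRNA genes, along the strand of the gene (x axis, bp, negative upstream). Filled dots are IDR peaks and rings are regions of the merged list only, with area proportional to the authors' signal and the 1 kb zone shaded; the widest dot, 1146 bp upstream of mir-279, has a signal of 1860, and mir-34 and mir-1 have no filled dot.

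Among growth and cell death microRNAs, 3 of 15 had an IDR summit within 1 kb: bantam, mir-2b-2 and mir-308 (20%, 7.05 to 45.2%, against 9.62% of all microRNA genes). mir-2b-2 lies with mir-2a-1 and mir-2a-2 in an intron of spi, which encodes the EGF receptor ligand Spitz. The peak 712 bp upstream of it (2L, 19570756 to 19571195) had 58.0 in replicate 2 and 85.5 in replicate 3 and is the same peak that lay 1004 bp from mir-2a-1. The peak at a start site of spi (2L, 19575608 to 19575965) was far stronger, with 600 and 548 (574 ± 36.8) and rank 137. mir-308, in an intron of the ribosomal protein gene RpS23, had a peak at 778 bp whose summit was 15 bp from the RpS23 start (2R, 14216422 to 14216861), with 60.3 and 60.9. The mir-2c, mir-13a and mir-13b-1 cluster lay 1170 to 1540 bp from 1 peak of signal 182. The mir-6 genes, mir-11, mir-278, mir-2b-1 and mir-13b-2 had IDR summits between 2475 bp (mir-278) and 9189 bp (mir-6-3) away.

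The strongest peak at any host start site belonged to the mir-279 and mir-996 locus. These microRNAs share a seed and act in sensory neuron specification. The peak at the start of their host lncRNA:CR31044 (3R, 29214232 to 29214612) had a signal of 896 in replicate 2 and 959 in replicate 3 (mean 927 ± 44.1, SD, n = 2) and 1860 in the merged list, where it ranked 34 of 30000. It lay 1146 bp upstream of mir-279 and so did not count within 1 kb. The peak that did count, 223 bp upstream of mir-279 (3R, 29215142 to 29215581), was among the weaker ones, with 41.7 and 70.0. mir-996 had only a merged-list region within 1 kb, at 928 bp.

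Summit sequences of 4 of these peaks are shown because they carry the strongest or best known loci. Each is the dm6 plus strand from 50 bases before to 50 bases after the summit, with matches to the searched motifs in capitals. The motifs, spelled out beside their shares in the next paragraph, were searched on both strands.
lncRNA:CR31044 start, chr3R:29214389-29214489: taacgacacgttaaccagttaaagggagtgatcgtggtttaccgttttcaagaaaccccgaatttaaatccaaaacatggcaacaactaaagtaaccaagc
mir-9377, chrX:12665571-12665671: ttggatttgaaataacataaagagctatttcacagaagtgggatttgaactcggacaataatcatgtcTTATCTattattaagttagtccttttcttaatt
mir-282, chr3L:3250144-3250244: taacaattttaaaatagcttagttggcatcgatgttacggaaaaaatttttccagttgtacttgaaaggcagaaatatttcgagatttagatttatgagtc
mir-ban, chr3L:642640-642740: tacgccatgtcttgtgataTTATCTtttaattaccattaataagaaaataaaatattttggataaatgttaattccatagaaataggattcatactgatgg
In these short windows, those at mir-9377 and mir-ban each held a GATA site and the other pair held none of the searched motifs. All 4 were poor in G and C, from 24.8% at mir-ban to 39.6% at lncRNA:CR31044.

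Over the 29 peaks near microRNA genes, searched in wider windows of 100 bp on each side of the summit, GC content had a median of 34.8%, against 33.3% over all IDR peaks. The TATA box, spelled TATAAA, was found in 10 of 29 windows (34.5%, against 40.3% of all peaks). The GATA site occurred in 8 windows (27.6%, against 30.8%), counting the spelling AGATAA together with the spelling TGATAA. The GAGA element, spelled GAGAG, occurred in 6 windows (20.7%, against 19.8%). The letters CAGTGC occurred in 4 windows (13.8%, against 18.1%). The DREF element, TATCGATA, occurred in 1 window, at mir-4911 (3.45%, against 1.71%). The Zelda site, spelled CAGGTAG, occurred in 0 windows, against 0.726%. With 29 windows each share moves by 3.45 percentage points per window, and no difference was tested. A match is a description of letters, not a binding site.

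Among neural microRNAs, 2 of 17 had an IDR summit within 1 kb, mir-279 and mir-276a (11.8%, 3.29 to 34.3%), a share near the 9.62% of all microRNA genes and the 10.5% of bases. mir-276a, which acts on a dopamine receptor in memory, had a peak 205 bp upstream (3L, 10364803 to 10365242) with 64.4 in replicate 2 and 53.1 in replicate 3. Its host lncRNA:CR46006 had a peak of 291 and 295 at another of its start sites (3L, 10331863 to 10332082). mir-9a, which limits sensory organ precursors, had its IDR peaks further upstream, the stronger at 4326 bp (3L, 19560672 to 19560994) with 554 and 626 (590 ± 50.8) and rank 131. mir-7 sits in an intron of HnRNP-K, whose start had a peak of 76.3 and 58.4, while the hairpin's nearest IDR summit was 4861 bp away. mir-124, mir-184, mir-190, mir-1000, mir-315, mir-219, mir-137, mir-927, mir-932, mir-276b, mir-263b and mir-bft (mir-263a), which protects sensory bristles from cell death, had IDR summits from 3316 bp (mir-bft) to 57622 bp (mir-219) away.

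The mir-275 and mir-305 cluster, whose member mir-305 is known for a role in intestinal stem cells, had 2 IDR peaks within 1 kb of both hairpins. The upstream peak (2L, 7425140 to 7425579), 435 bp from mir-275, had 111 in replicate 2 and 163 in replicate 3 (137 ± 36.6). The downstream peak (2L, 7426387 to 7426826) had 69.7 and 54.3 and lay 259 bp from a start of muc, a pyruvate dehydrogenase component gene. Of the 5 genes of ageing and metabolism these 2 counted (40%, 11.8 to 76.9%, against 9.62% of all microRNA genes), and they are 1 place with shared peaks. mir-33, in an intron of the lipid regulator gene SREBP, had its nearest IDR summit at 3357 bp.

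mir-1, the muscle microRNA, had no IDR summit within 6 kb and its nearest was 7266 bp away. None of the 4 Hox cluster microRNAs had an IDR summit within 1 kb (0%, 0 to 49%), an interval that holds the 9.62% of all microRNA genes. Their nearest distances were 2963 bp (mir-10), 5048 bp (mir-iab-4 and mir-iab-8, opposite strands of the same site) and 13231 bp (mir-993). The host transcript of mir-10, lncRNA:CR42651, had a peak at its start with 55.2 and 55.3 in the replicates.

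The testis clusters had no IDR summit within 1 kb of any of 24 listed hairpins (0%, interval 0 to 13.8%), against the 10.5% of bases given above. The mir-972 to mir-979 hairpins were 36006 bp or more from any IDR summit and 18150 bp or more from any merged region. The mir-959 to mir-964 hairpins were 17062 to 18224 bp away. The mir-310 to mir-313 hairpins were closer, 1192 to 1630 bp from an IDR peak of 149 and 134 in the replicates (2R, 20582530 to 20582651), and had merged-list regions 12 to 450 bp away. mir-991 and mir-992 were 2177 and 2067 bp away, and the mir-982 to mir-984 hairpins 22864 to 25701 bp. Members of a cluster share their surroundings, so these 24 genes are not independent places.

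Counted by place, the 260 genes formed 203 loci when neighbours on the same strand with gaps of up to 10 kb were joined, and 23 loci (11.3%, 7.67 to 16.4%) had an IDR summit within 1 kb of a member. Clusters of 2 or more genes numbered 22, of which 4 had one (18.2%, 7.31 to 38.5%). They were mir-92a with mir-92b, mir-275 with mir-305, mir-279 with mir-996, and the mir-2 genes of spi. Among 181 single-gene loci 19 had one (10.5%, 6.82 to 15.8%). A locus counted when any of its members lay near a peak. The shares of clusters and of all loci therefore cannot be compared with a share per gene, and no background per locus was computed. The largest clusters, of 12 genes (mir-972 to mir-979), 8 genes (mir-309 to mir-6-3) and 7 genes (mir-310 to mir-992), had none.

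Peaks were then counted at all annotated start sites of host genes, whether or not a start lies upstream of the hairpin. Of 89 protein-coding hosts of intronic hairpins, 27 (30.3%, 21.8 to 40.5%) had an IDR summit within 500 bp of a start site, against 19.4% of all protein-coding genes. Hosts had a median of 2 annotated start sites and a length of 14358 bp, against 1 start site and 2166 bp over all protein-coding genes. Among genes with 3 or more start sites, 18 of 29 hosts were bound in this sense (62.1%, 44.0 to 77.3%), against 48.1% of all such genes. Among genes with 1 or 2 it was 9 of 60 hosts (15%, 8.10 to 26.1%), against 16.9%. The number of start sites moved with the result, and its part in it beyond these values was not tested. Of 34 ncRNA hosts, 7 had a summit at a start (20.6%, 10.3 to 36.8%), against 10.5% of ncRNA genes that are not microRNA genes. These 7 had from 1 to 4 annotated start sites, and the ncRNA shares were not divided by that number or tested.

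**Figure D5:**
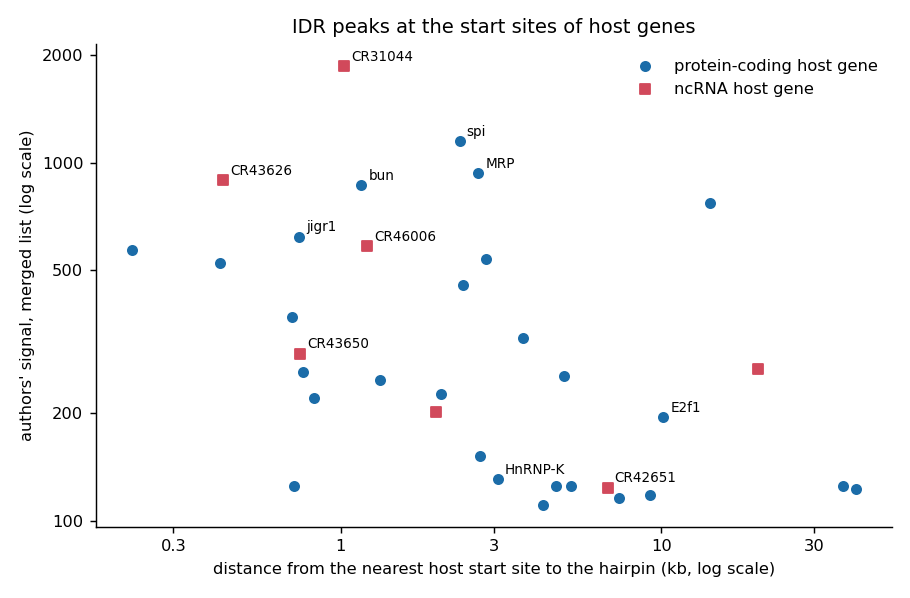
Authors' signal in the merged list (log scale) of the strongest IDR peak within 500 bp of a start site of each of 34 bound host genes, against the distance from the nearest host start site to the hairpin (kb, log scale), for protein-coding hosts (circles) and ncRNA hosts (squares). The peak can lie at another start site than the one whose distance is plotted, as at bun, spi and lncRNA:CR46006. lncRNA:CR31044, the host of mir-279 and mir-996, stands highest at 1860 and spi next at 1148.

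In all, 43 of 147 hosted hairpins (29.3%, 22.5 to 37.1%) had a peak at any start of the host. The count repeats hosts such as grp with 4 hairpins and spi with 3. It does not tell which start gives the transcript that holds the hairpin. The shares over all protein-coding and ncRNA genes given above are the background per host, and none was computed per hairpin. Of the 43, 31 had no IDR summit within 1 kb of the hairpin itself. The distance from the nearest start to the hairpin had a median of 2680 bp over protein-coding hosts and 1795 bp over ncRNA hosts. The peak signal at the 34 bound hosts had a median of 258 (quartiles 126 and 562). Protein-coding hosts with strong start peaks included MRP, a multidrug resistance-associated transporter gene that holds mir-9382, with 500 in replicate 2 and 431 in replicate 3, and bun, a growth regulator gene that holds mir-967, with 425 and 440. E2f1, the cell cycle factor gene that holds mir-11 and mir-998, had 113 and 83.9. The gene grp, which encodes the Chk1 checkpoint kinase, holds mir-9b, mir-9c, mir-79 and mir-306. Its peak had 233 in replicate 2 and was not matched by a region of replicate 3.

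Other hairpins near a peak are less studied. mir-2491 in fog had a peak 129 bp upstream with 186 in replicate 2 and 215 in replicate 3, and mir-2496 a peak of 164 and 175 that lay 191 bp from the start of PIG-K. mir-4974 in CG8671 (121 and 130) and mir-4962 in Tlk (57.0 and 47.8) had summits inside the hairpin, and mir-4962 also had a stronger peak of 113 and 123 at 392 bp from a Tlk start. mir-4911, the mirtron of ND-23, had its peak (130 and 127) 145 bp from the start of spn-E and 157 bp from that of its host ND-23. mir-4981, mir-4968, mir-4978, mir-274, mir-965, mir-4956, mir-375 and mir-9378 had strongest peaks of 50.3 to 116 in replicate 2 and 65.8 to 141 in replicate 3. Of genes numbered below 1000 or named by a word, 14 of 134 had a summit (10.4%, 6.33 to 16.8%), and of those with higher numbers 11 of 126 (8.73%, 4.94 to 15%). The intervals of these groups overlapped.

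Below the IDR list, 58 further genes had only a merged-list region within 1 kb. At 38 of them both replicate lists held an overlapping region (65.5%, 52.7 to 76.4%), a share not counted for other genes. The strongest of these regions lay near mir-4949, with 43.4 in replicate 2 and 48.4 in replicate 3, then near mir-4967 (41.2 and 54.0), at mir-982 and mir-303, which share a region (45.5 and 43.7), and near mir-4946 (45.2 and 39.1).

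The genes that make and use microRNAs, listed together with 4 genes of the siRNA branch, were compared at their own promoters. A promoter was taken as 500 bp around any start site. Of 30 listed genes, 14 had an IDR summit there (46.7%, 30.2 to 63.9%), against 19.4% of all protein-coding genes. These shares were not divided by number of start sites. The list was drawn up with earlier results of these data known and was not tested as a set. In the nucleus, the Microprocessor genes drosha and pasha had no summit (15759 and 1806 bp away). Of the genes for the nuclear cap-binding complex and its partner, Ars2 and Cbp20 had one and Cbp80 did not (16963 bp away). Cbp20 had 129 in replicate 2 and 106 in replicate 3 (3R, 18164385 to 18164824). Ars2 had 111 in replicate 2 and was not matched by a region of replicate 3. The export factor gene Ranbp21 had none, and neither did Dcr-1, whereas loqs, for the Dicer-1 partner Loquacious, had a weak peak of 42.2 and 56.1.

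All 3 listed effector genes had a promoter peak, against 19.4% of all protein-coding genes. The groups by role hold from 1 to 7 genes each, and none was tested. The peak at gw, for the repressor GW182 (4, 659979 to 660152), had 225 in replicate 2 and 215 in replicate 3. Nbr, for the exonuclease Nibbler that trims microRNA 3′ ends, had 144 and 120, and AGO1 had a weak peak of 42.6 and 70.2 (2R, 13957971 to 13958410). Loading chaperone genes Hsc70-4 (199 and 188) and Hsp83 (170 and 180) had peaks and Droj2 and Stip1 had none. Among genes of repression and decay, tral (248 and 271), Pop2 (179 and 135), DCP2 (145 and 161) and twin (117 and 75.8) had peaks, and me31B, Not1 and DCP1 had none. Of 4 regulator genes 1 had a peak, brat (57.3 and 112). Of 4 siRNA branch genes 1 had a peak, r2d2 (243 and 244), with AGO2, Dcr-2 and Hen1 at 4734 bp or more from an IDR summit. Each of these shares is 25%, against the same 19.4%.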

How the data were processed

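ChIP-seq region lists on dm6 were used, 4 in all. The signal of each region is the authors' value, deposited per region with its scale not stated. Its median over the IDR list was 190 in the merged list, against 97.9 and 95 over the 8399 strongest regions of replicates 3 and 2. A deposited −log10 q-value per region was not used. Per the README files deposited with the lists, each replicate list and the merged list (30000 regions each) are input for the IDR comparison, and the IDR list holds 8399 regions. Not given in the sources used here: aligner, caller and thresholds. Read depth is unknown. All 8399 IDR entries were found in the merged list. Overlapping entries were kept.

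Summits were assigned to BDGP6.54 genes in Python 3.11.15 with numpy 2.4.6 and pandas 2.3.3, and the assignment was tested on simulated data (199 of 199 genes correct). A replicate's value at a peak is that of its overlapping region with the nearest summit, so overlapping entries can share it. Intronic hairpins lie in an intron and outside all exons of a same-strand protein-coding gene. Mature sequences were read from RefSeq coordinates for 260 genes. No test was made: intervals beside shares are Wilson intervals (scipy 1.17.1), and the background is the same count over other genes or bases where one was made. By the naming rule, genes named are the 20 with the strongest IDR peaks within 1 kb and their loci, members of role groups, the 5 with the strongest regions below the IDR list, and hosts. The remaining genes near a peak, the other hosts, the genes at the distance limit and the 18 mapped genes were chosen after their values were seen. The members and lists were chosen with earlier results of these data known. Lists on the older dm3 build were left out.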

Additional observations from a re-analysis of the deposited data

How the results depend on the processing

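The counts scale with the distance and the list. With summits within 500 bp of the hairpin, 12 genes counted (7 intronic, 4 independent, 11 loci), and within 2000 bp 47 genes (23 intronic, 22 independent, 36 loci). The 4199 strongest peaks gave 14 genes (7 intronic, 7 independent, 13 loci) and the whole merged list 83 genes (31, 42 and 74). Measuring from the 5′ end of the hairpin kept all 25 genes, and counting any base of a peak within 1 kb added 4. Leaving out a replicate, with the 8399 strongest regions of the other in its place, gave 26 to 29 genes, 12 to 14 intronic, 12 to 13 independent and 24 to 27 loci. Without replicate 3, mir-279 was lost, and without replicate 2 all 25 remained. Joining genes over gaps of up to 3 kb gave 24 loci. The median signal of 191 was 210 within 500 bp and 186 within 2000 bp. It was 83.4 to 92.2 in the lists of 1 replicate, against medians of 97.9 and 95 over their 8399 strongest regions, whose signals are on the scale of 1 replicate. The count of 14 listed pathway genes ranged from 12 to 15 over other promoter widths, the 4199 strongest peaks and each replicate alone. No paired analysis was possible because there is a single group. With 260 genes, a share near 10% carries an interval from 6.60 to 13.8%, and read depth is unknown.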
